A study of Mus musculus with 36 samples.

Results

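The 26 genes described here belong to the synthesis of cholesterol and to its control and handling in the cell, and they were found by symbol among the 32544 gene symbols of a count table from mouse liver. By role they comprised 8 genes of the mevalonate steps, 11 genes of the sterol steps, 4 regulators and 3 further genes. Whole livers of 36 male C57BL/6N mice were sequenced, 6 mice in each of 6 groups, after removal of ribosomal RNA. The 3 treated groups received carbon tetrachloride (CCl4) at 1 g/kg in olive oil by 2 intraperitoneal injections per week for 2, 6 or 12 months. Olive oil alone was injected for 2 or for 12 months, livers were taken 6 days after the last injection of either, and no oil group stands beside month 6. The remaining group carries the title of month 0 control, although its treatment label also reads olive oil. The mice were 8 to 10 weeks old at the start, so that age differs between the months. CCl4 is a toxin that hepatocytes convert to radicals, and repeated doses are used as a model of liver fibrosis; no gene was altered in any group.

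Cholesterol is built from acetyl-CoA. The mevalonate steps give the isoprene units that farnesyl diphosphate synthase joins, and the sterol steps turn squalene into lanosterol and then, by demethylations, reductions and an isomerisation, into cholesterol. The transcription factor SREBP2, encoded by Srebf2, drives most of these genes: its escort protein SCAP carries it out of the endoplasmic reticulum when sterols are scarce, and the proteins of Insig1 and Insig2 hold the pair back when sterols are plentiful. The liver is a main site of this synthesis, and its sterol genes follow feeding and the time of day.

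Each library held between 19403247 and 28917545 counts, and the 26 genes had between 56 and 56236 counts in each library. Levels below are counts scaled to CPM, a common library total after TMM scaling, and fold changes are log2 values with their standard error (SE) from edgeR's quasi-likelihood test in 1 fit of the 36 libraries, adjusted over 15338 genes. Where 3 levels are given for a group, they are the lowest, the median and the highest of its 6 mice. A gene is called, and said to rise or fall, at an adjusted p below 0.05. All 26 genes passed the filter on low counts. The 7 hepatocyte markers in the table summed to between 67778 and 151471 CPM in every group, as the label of liver asks for. At month 12 these markers summed to a median of 76087 CPM in CCl4 livers (67778 to 103233) and 93106 CPM in oil livers (68637 to 115420), and 5 of the 7 fell. In whole tissue, fewer cells of a type and less RNA per cell cannot be told apart. Transcripts of exocrine pancreas varied between 9.21 and 24581 CPM in sum with median fold changes of -0.22, -1.93 and -2.37 over its 7 genes for CCl4 against oil at months 2, 6 and 12; no gene of the list passed the test, and the part of these transcripts in the results was not tested. Of the libraries that stand apart, month 2 CCl4 replicate 1 had the highest erythroid sum (7305 CPM) and month 12 oil replicate 2 the highest mesothelial sum (104 CPM), while month 6 CCl4 replicate 2 had the highest mesothelial sum of its group (82.8 CPM). Month 2 oil replicate 2 was the lowest mouse of its group for 16 of the 19 synthesis enzymes and month 12 oil replicate 2 for 17, whereas month 6 CCl4 replicate 2 was the highest of its group for 15. In month 2 CCl4 livers replicate 6 was the lowest for 15 of the 19 and replicate 1 the highest for 11. Results for the 26 genes that turn on these libraries are also given without them. Month 2 CCl4 replicate 5 had the highest sums of pancreas (24581 CPM) and intestinal (657 CPM) transcripts. It is not among the 4 or 5 libraries left out together below.

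The level of the genes relative to one another was read per kilobase of exon in the month 0 livers. Insig1 (347 mean CPM per kb) and Hmgcs1, the cytosolic HMG-CoA synthase (245 mean CPM per kb), stood at the top, ahead of Fdps (139), Idi1 (136) and Sc5d (112), all as mean CPM per kb. At the low end were Srebf2 (3.74), Mylip (3.37), Ggps1 (1.91) and Lpin3 (1.74), on the same scale. The mice of a group differed most in Hmgcs1 among the month 0 livers, with a coefficient of variation of 53.9%, and the median over the 26 genes was 25% in that group. Averaged over the 19 enzymes as log2(CPM + 1), the level was 7.20 ± 0.38 in month 0 livers, 6.09 ± 0.28 and 6.65 ± 0.30 in month 2 CCl4 and oil livers, 6.92 ± 0.32 in month 6 CCl4 livers, and 6.19 ± 0.25 and 6.67 ± 0.25 in month 12 CCl4 and oil livers (SD, n = 6 each).

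**Figure D1:**
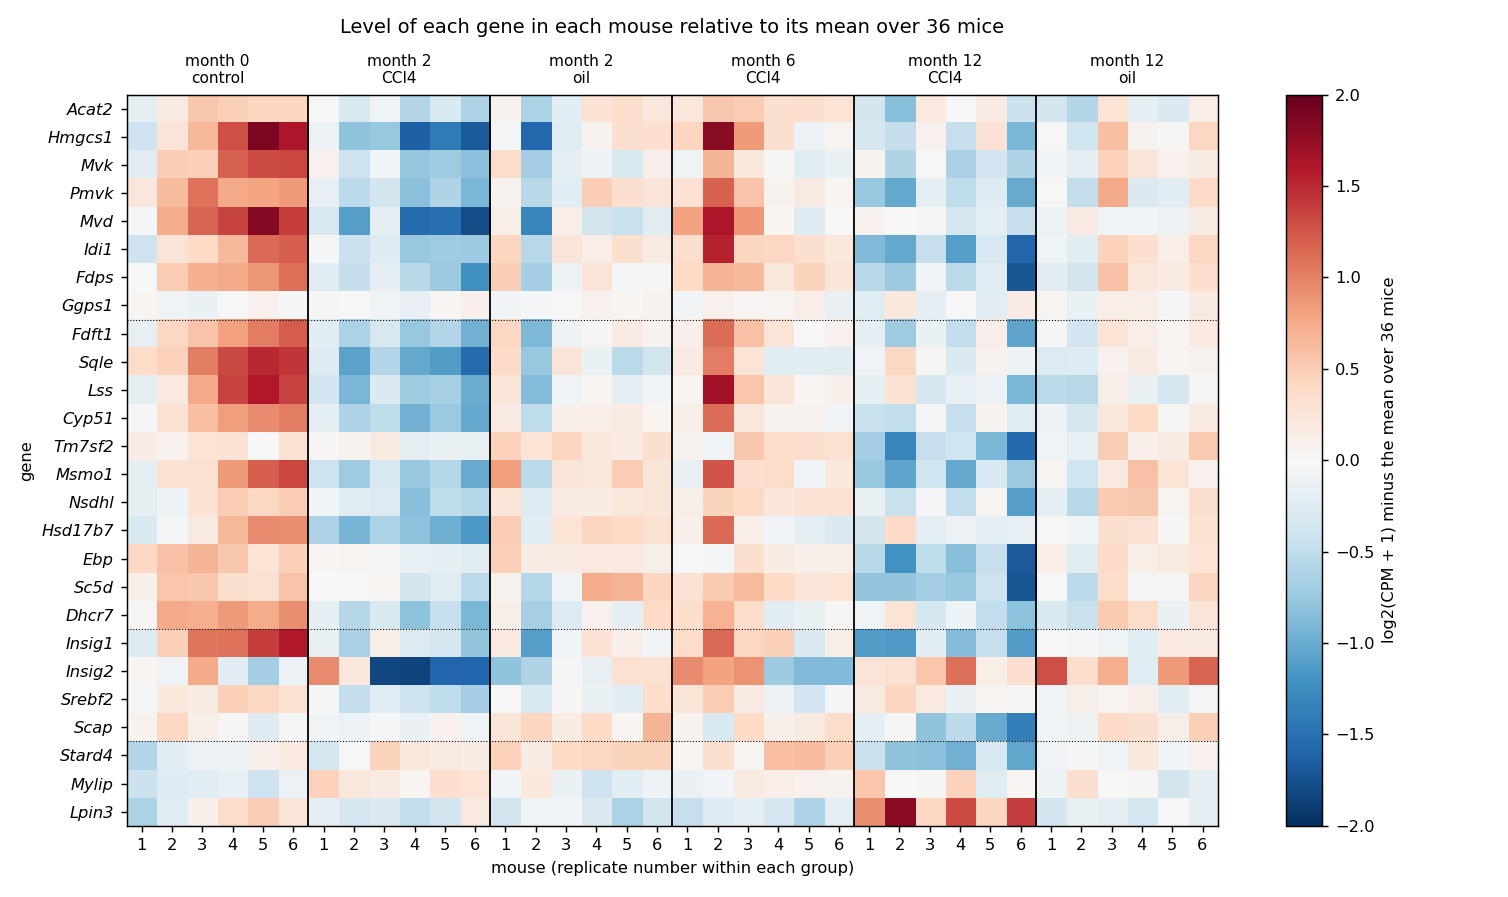
Level of each of the 26 genes (rows; from the top the mevalonate steps, sterol steps, regulators and further genes, set apart by dotted lines) in each of the 36 mice (columns, by group), as log2(CPM + 1) minus the gene's mean over the 36 mice. The month 2 CCl4 block is low for most enzymes, the month 6 CCl4 block is high mainly in replicate 2, and Ggps1 hardly varies in any group.

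The promoters of Hmgcs1, Insig1 and Insig2 are shown for the control elements of this pathway: of the promoters searched, that of Hmgcs1 alone held the letters of a sterol regulatory element, and the Insig genes encode the sterol-sensing brake. The 250 bases before the RefSeq start are printed 5′ to 3′ on the strand of the gene, from the GRCm38.p6 build, and capitals mark matches to the sterol regulatory element TCACNCCAC, to the NF-Y box CCAAT and to the E-box CACGTG on either strand (ATTGG is CCAAT read on the other strand).
Hmgcs1, chr13:119690101-119690350, plus strand: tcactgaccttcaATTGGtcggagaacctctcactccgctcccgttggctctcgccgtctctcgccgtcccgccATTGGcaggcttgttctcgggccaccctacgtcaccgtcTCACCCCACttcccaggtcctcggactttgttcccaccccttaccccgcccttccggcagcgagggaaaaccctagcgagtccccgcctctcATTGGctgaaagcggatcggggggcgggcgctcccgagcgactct
Insig1, chr5:28071162-28071411, plus strand: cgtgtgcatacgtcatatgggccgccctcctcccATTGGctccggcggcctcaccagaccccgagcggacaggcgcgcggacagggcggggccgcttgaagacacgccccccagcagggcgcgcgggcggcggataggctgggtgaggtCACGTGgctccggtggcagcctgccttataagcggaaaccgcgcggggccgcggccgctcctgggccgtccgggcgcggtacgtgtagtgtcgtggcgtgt
Insig2, chr1:121332590-121332839, minus strand: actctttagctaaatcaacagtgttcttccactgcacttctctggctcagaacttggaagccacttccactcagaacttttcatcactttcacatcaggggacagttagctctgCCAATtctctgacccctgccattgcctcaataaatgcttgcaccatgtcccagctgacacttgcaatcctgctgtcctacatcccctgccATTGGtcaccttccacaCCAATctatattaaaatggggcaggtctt
Counted from the start base, which has position 0, the sterol regulatory element letters of Hmgcs1 begin at -137, flanked by CCAAT boxes that begin at -237, -176 and -45. Insig1 has its E-box at -101 and a CCAAT box at -216. The farthest upstream of the 3 RefSeq starts of Insig2 is shown, with CCAAT boxes at -136, -46 and -29. Windows from 250 bases before to 50 bases after the start were searched on both strands for 22 of the 26 genes, 29 windows in all, and for all 32851 mouse windows in the table. The sterol regulatory element letters occurred in 1 of the 29 windows (3.45%) and in 1.24% of all windows. CCAAT occurred in 19 of the 29 windows (65.5%) against 37.4% of all windows, and the Sp1 letters GGGCGG in 23 (79.3%) against 35.7%. The E-box CACGTG, a letter string that clock factors among others can bind, occurred in 7 (24.1%) against 7.15%, in the windows of Hsd17b7, Lpin3, Insig1, Dhcr7, Sc5d and Scap. The windows of Scap overlap, so that 1 E-box and 1 GGGCGG of this gene are counted in both. By gene, the E-box occurred in 6 of the 22 searched. Within a window none of these strings overlaps another, and a match is a description of the letters only.

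After 2 months of CCl4, 5 of the 11 genes of the sterol steps were lower than under oil. Of the 26 genes, 6 fell (3.38% of all tested genes fell) and 1 rose (7.0% of all tested genes rose); 24 of the 26 fitted fold changes were below 0, with a median of -0.47 against 0.00 over all genes. Of the 6 that fell, 5 belong to the sterol steps (Hsd17b7, Msmo1, Cyp51, Sqle and Nsdhl) and 1 to the mevalonate steps (Pmvk).

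Hsd17b7, which reduces a keto-sterol intermediate and spans chr1:169949535-169969241 in mm10, had a lowest, median and highest level of 26.3, 32 and 38.3 CPM in CCl4 livers, against 51.3, 76.5 and 85.4 CPM in oil livers. The 2 groups did not overlap, and the log2 fold change was -1.17 (SE 0.21, adjusted p = 0.000255); the call held without any of the 36 libraries and in each alternative fit. Msmo1, the methylsterol monooxygenase of the later demethylations (chr8:64718139-64733792), had 125, 163 and 202 CPM (lowest, median and highest) in CCl4 livers, against 175, 301 and 454 CPM in oil livers. The groups overlapped through the lowest oil mouse, and the fold change was -0.93 (SE 0.24, adjusted p = 0.00981).

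Cyp51, the lanosterol demethylase (chr5:4081145-4104746), had 106, 136 and 189 CPM in CCl4 livers, against 152, 233 and 247 CPM in oil livers. Its fold change was -0.68 (SE 0.19, adjusted p = 0.0148), with the lowest oil mouse inside the CCl4 range. That mouse was oil replicate 2, which also was low for Idi1 (210 CPM), Nsdhl (51.2 CPM) and Insig1 (249 CPM). Without it 12 of the 26 genes were called at month 2. The shares of all tested genes called when libraries are left out are not given here or below.

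Pmvk, the phosphomevalonate kinase (chr3:89454541-89469013), had 24.6, 31.7 and 42.1 CPM in CCl4 livers, against 31.9, 53.2 and 66.6 CPM in oil livers, with a fold change of -0.66 (SE 0.21, adjusted p = 0.0432). Sqle, the squalene epoxidase, was lower by -0.75 (SE 0.23, adjusted p = 0.0311) and Nsdhl, a sterol dehydrogenase of the demethylation steps, by -0.54 (SE 0.17, adjusted p = 0.0407). Mylip, a ubiquitin ligase that marks lipoprotein receptors for breakdown, was the 1 gene that rose, with means of 16.1 ± 1.7 CPM in CCl4 livers and 12.3 ± 1.93 CPM in oil livers (SD, n = 6 each) and a fold change of 0.39 (SE 0.12, adjusted p = 0.0362). The 4 calls of Pmvk, Sqle, Nsdhl and Mylip lay close to the threshold: each was lost when any of several libraries was left out. The count was 3 without oil replicate 1 or CCl4 replicate 5 or 6, and 4 without oil replicate 3, 4 or 5 or CCl4 replicate 3 or 4. None of the 4 regulators was called at month 2; Srebf2 had a fold change of -0.36 (SE 0.13, adjusted p = 0.0672) and was called lower without CCl4 replicate 1 (-0.47, adjusted p = 0.0193) or oil replicate 2 (-0.41, adjusted p = 0.0463), with DESeq2 and with the clock covariate, Scap of -0.39 (SE 0.16, adjusted p = 0.124), Insig1 of -0.28 (SE 0.24, adjusted p = 0.532) and Insig2 of -0.37 (SE 0.41, adjusted p = 0.635). All 6 neutrophil markers and 4 of 6 macrophage markers rose in the same comparison. The neutrophil sum was 14.6, 20.4 and 218 CPM in CCl4 livers, the highest in replicate 1, against 5.19, 10.6 and 12.5 CPM in oil livers. The marker calls without that replicate are not given here. Of 6 cholangiocyte markers 2 rose too, with sums of 66.8 to 163 CPM in CCl4 livers and 36.8 to 83.7 CPM in oil livers. Their part in the result was not tested.

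**Figure D2:**
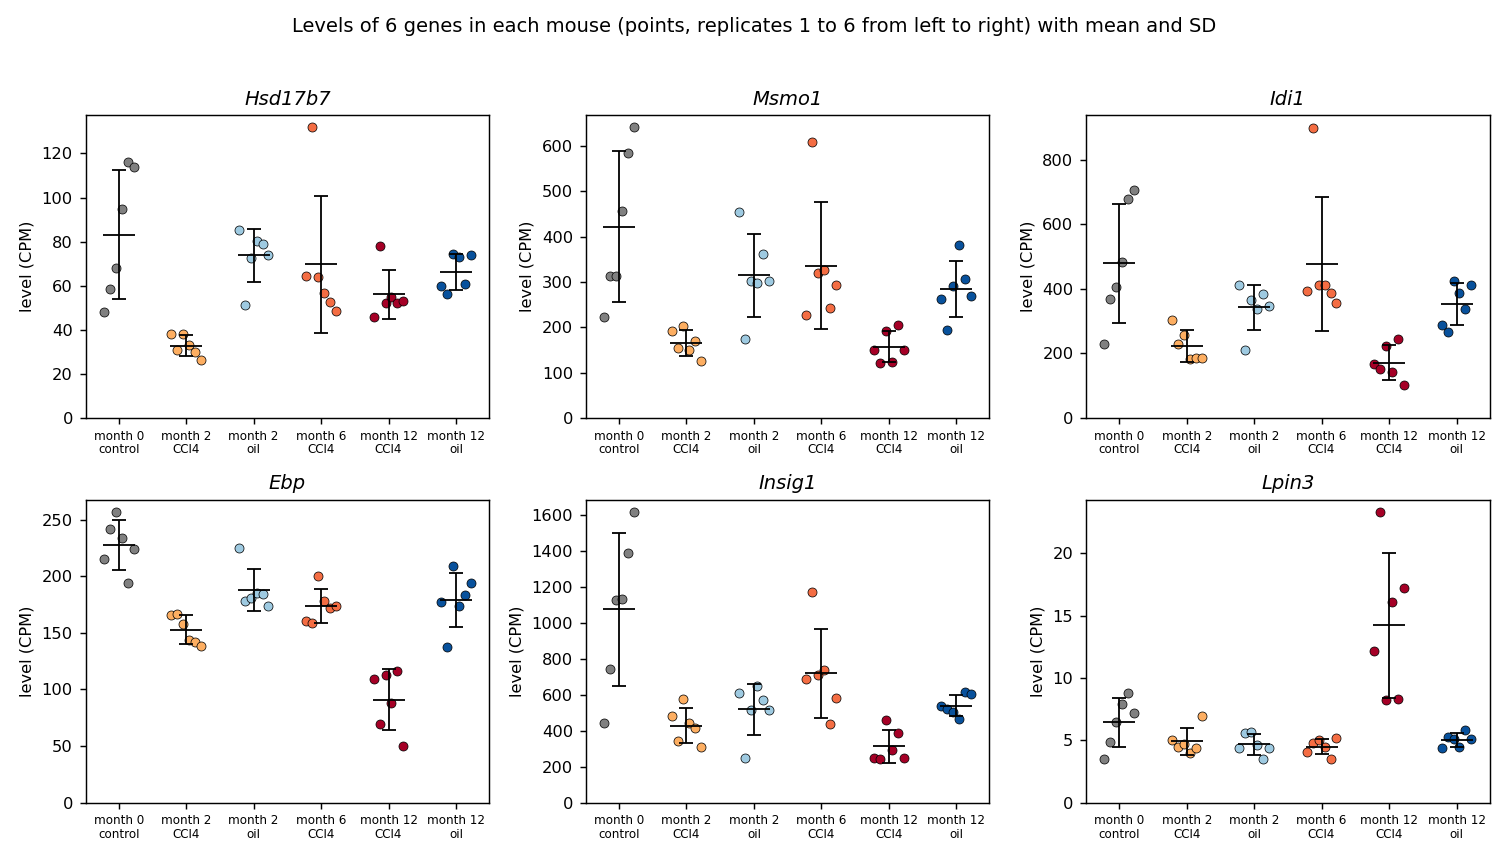
Levels in CPM (vertical axes, from 0) of Hsd17b7, Msmo1, Idi1, Ebp, Insig1 and Lpin3 in each mouse of the 6 groups, with the mean and SD as bars. At month 2, Hsd17b7 and Ebp (not called) are separated between CCl4 and oil, and at month 12 Idi1, Ebp, Insig1 and Lpin3. For Hsd17b7, Msmo1 and Idi1, 1 mouse of the month 6 CCl4 group lies far above the other 5.

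After 6 months of CCl4 few of the genes differed from oil. Since there is no oil group of that month, the livers were set against the average of both oil groups, those of months 2 and 12: 2 genes rose (7.71% of all tested genes rose) and 0 fell (3.68% of all tested genes fell), with a median fold change of 0.18 over the 26 genes. Among the 26, 7 had an unadjusted p below 0.05. The share of all tested genes at that unadjusted p is not given here or below, so such counts have no background beside them. Mvd, the mevalonate diphosphate decarboxylase, had 17.7, 30.3 and 68.2 CPM in month 6 CCl4 livers, against 8.09, 17.3 and 23.6 CPM in month 2 oil livers and 19.7, 20.3 and 24.2 CPM in month 12 oil livers; its fold change was 0.84 (SE 0.26, adjusted p = 0.0274). Lss, the lanosterol synthase, had 80.3, 88.6 and 252 CPM in month 6 CCl4 livers, against 42.4, 74.8 and 93 CPM in month 2 oil livers and 52.7, 66 and 84.8 CPM in month 12 oil livers, with a fold change of 0.76 (SE 0.23, adjusted p = 0.0254). Both rises rested on CCl4 replicate 2, the mouse with 252 CPM of Lss. Without it 0 genes were called, and the fold changes were 0.54 for Mvd (adjusted p = 0.223) and 0.39 for Lss (adjusted p = 0.298). The count was 1 without CCl4 replicate 1 or replicate 3. Against month 12 oil alone 0 genes were called, and 1 against month 2 oil alone. With the same contrast 3 of 6 neutrophil markers rose, 3 of 6 macrophage markers rose and 1 fell, and 3 of 4 tested adipocyte markers fell; their part in the result was not tested.

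After 12 months of CCl4, 11 of the 26 genes fell (23.2% of all tested genes fell) and 1 rose (25.9% of all tested genes rose), with a median fold change of -0.41 against 0.01 over all genes. The genes that fell were 3 of the mevalonate steps (Pmvk, Idi1 and Fdps), 5 of the sterol steps (Tm7sf2, Msmo1, Nsdhl, Ebp and Sc5d), the regulators Insig1 and Scap, and the sterol carrier Stard4. The count of 11 of 26 is to be read against that share of all genes. Of 7 hepatocyte markers 5 fell too, with a median of -0.93 over the 7. Of 6 cholangiocyte markers 3 rose (median 1.24), with sums of 215 to 1092 CPM in CCl4 livers and 42 to 96.1 CPM in oil livers, which did not overlap. Of 6 macrophage markers 4 rose and 1 fell, of 6 erythroid markers 2 rose and 1 fell, and of 4 tested adipocyte markers 1 rose and 3 fell. The part of these in the result was not tested.

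Ebp, the sterol isomerase (chrX:8185329-8193512), had 49.6, 98.7 and 116 CPM in month 12 CCl4 livers, against 137, 180 and 209 CPM in oil livers. No CCl4 mouse reached the oil range, and the fold change was -0.98 (SE 0.13, adjusted p = 3.59e-07). Tm7sf2, a sterol reductase (chr19:6062821-6068373), had 26.9, 46.2 and 61.2 CPM in CCl4 livers, against 71.9, 88.5 and 117 CPM in oil livers, again without overlap and with a fold change of -1.04 (SE 0.15, adjusted p = 6.1e-07). Both falls held in each alternative fit. Tm7sf2 overlaps Vps51 on the same strand, so that some counts may belong to the neighbour. Fdps and Srebf2 also overlap annotated genes on their own strand. Cyp51, Fdft1 and Ggps1 overlap Akap9, Ctsb and Arid4b on the other strand, and Hmgcs1, Mvd, Idi1, Lss, Insig2, Scap and Lpin3 overlap other annotated genes there. The library kit keeps the strand, but no source used here says whether the counting used it.

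Idi1, the isopentenyl-diphosphate isomerase (chr13:8885501-8892451), had 102, 159 and 246 CPM in CCl4 livers, against 266, 362 and 423 CPM in oil livers. The groups did not overlap (fold change -1.04, SE 0.24, adjusted p = 0.000615). Sc5d, the lathosterol oxidase (chr9:42251595-42264256), had 125, 240 and 309 CPM in CCl4 livers, against 286, 416 and 553 CPM in oil livers. Here the ranges met at 1 end, and the fold change was -0.89 (SE 0.18, adjusted p = 0.000163).

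Msmo1 fell at month 12 as it did at month 2, with 122, 150 and 206 CPM in CCl4 livers, against 193, 280 and 381 CPM in oil livers and a fold change of -0.85 (SE 0.24, adjusted p = 0.00341). Pmvk had 22.7, 30.2 and 41.1 CPM in CCl4 livers, against 33.7, 44 and 80.7 CPM in oil livers (fold change -0.70, SE 0.21, adjusted p = 0.00725). Fdps, the farnesyl diphosphate synthase, changed by -0.71 (SE 0.21, adjusted p = 0.00661) and Nsdhl by -0.48 (SE 0.17, adjusted p = 0.0199). Among the sterol enzymes Sqle (0.04, SE 0.23) and Lss (0.02, SE 0.27) had fitted fold changes near 0, with adjusted p of 0.891 and 0.953. Hsd17b7, the strongest fall of month 2, had 46, 52.7 and 78.2 CPM in month 12 CCl4 livers, against 56.2, 66.9 and 74.4 CPM in oil livers and was not called (-0.24, SE 0.20, adjusted p = 0.331).

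Among the regulators, Insig1 had 242, 269 and 457 CPM in month 12 CCl4 livers, against 462, 528 and 613 CPM in oil livers. The groups did not overlap, and the fold change was -0.79 (SE 0.24, adjusted p = 0.00767). Scap, the escort of SREBP2 (chr9:110333288-110384950), had 25.1, 41.6 and 67.5 CPM in CCl4 livers, against 61.8, 77.6 and 92.5 CPM in oil livers; the ranges overlapped at 1 end (-0.78, SE 0.16, adjusted p = 0.00019). Srebf2 itself had means of 24.4 ± 3.48 CPM in CCl4 livers and 22.1 ± 1.94 CPM in oil livers (SD, n = 6 each), and was not called (0.14, SE 0.13, adjusted p = 0.371). Stard4, a soluble carrier that moves sterol between membranes, had 51.5, 60.3 and 85.3 CPM in CCl4 livers, against 101, 104 and 126 CPM in oil livers, with no overlap between the groups and a fold change of -0.73 (SE 0.13, adjusted p = 2.71e-05).

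Lpin3, a lipin that makes diacylglycerol for glycerolipids and is no enzyme of sterol synthesis (chr2:160880670-160906002), was the 1 gene that rose at month 12. Its level was 8.24, 14.2 and 23.3 CPM in CCl4 livers, against 4.37, 5.12 and 5.86 CPM in oil livers. Every CCl4 mouse was above every oil mouse, and the fold change was 1.5 (SE 0.21, adjusted p = 4.0e-07).

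The falls at month 12 depend on the scaling. TMM factors ran from 0.757 to 1.33 and were highest in month 12 CCl4 libraries; with library totals alone the median fold change of all genes moved to 0.56 at month 12, 0.31 at month 6 and 0.20 at month 2. On that scale 2 of the 26 genes fell at month 12, Ebp and Tm7sf2, and 6 rose, against 3.86% and 67.4% of all tested genes, and Nsdhl turned to 0.08; at month 2, 2 fell and 1 rose, against 1.17% and 20.6%. The median of the 26 genes was then 0.14 at month 12, which lies below the median of all genes, and -0.27 at month 2. At month 6, 20 of the 26 were called higher on that scale, as were 57.9% of all tested genes, and 0 lower (1.15%).

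**Figure D3:**
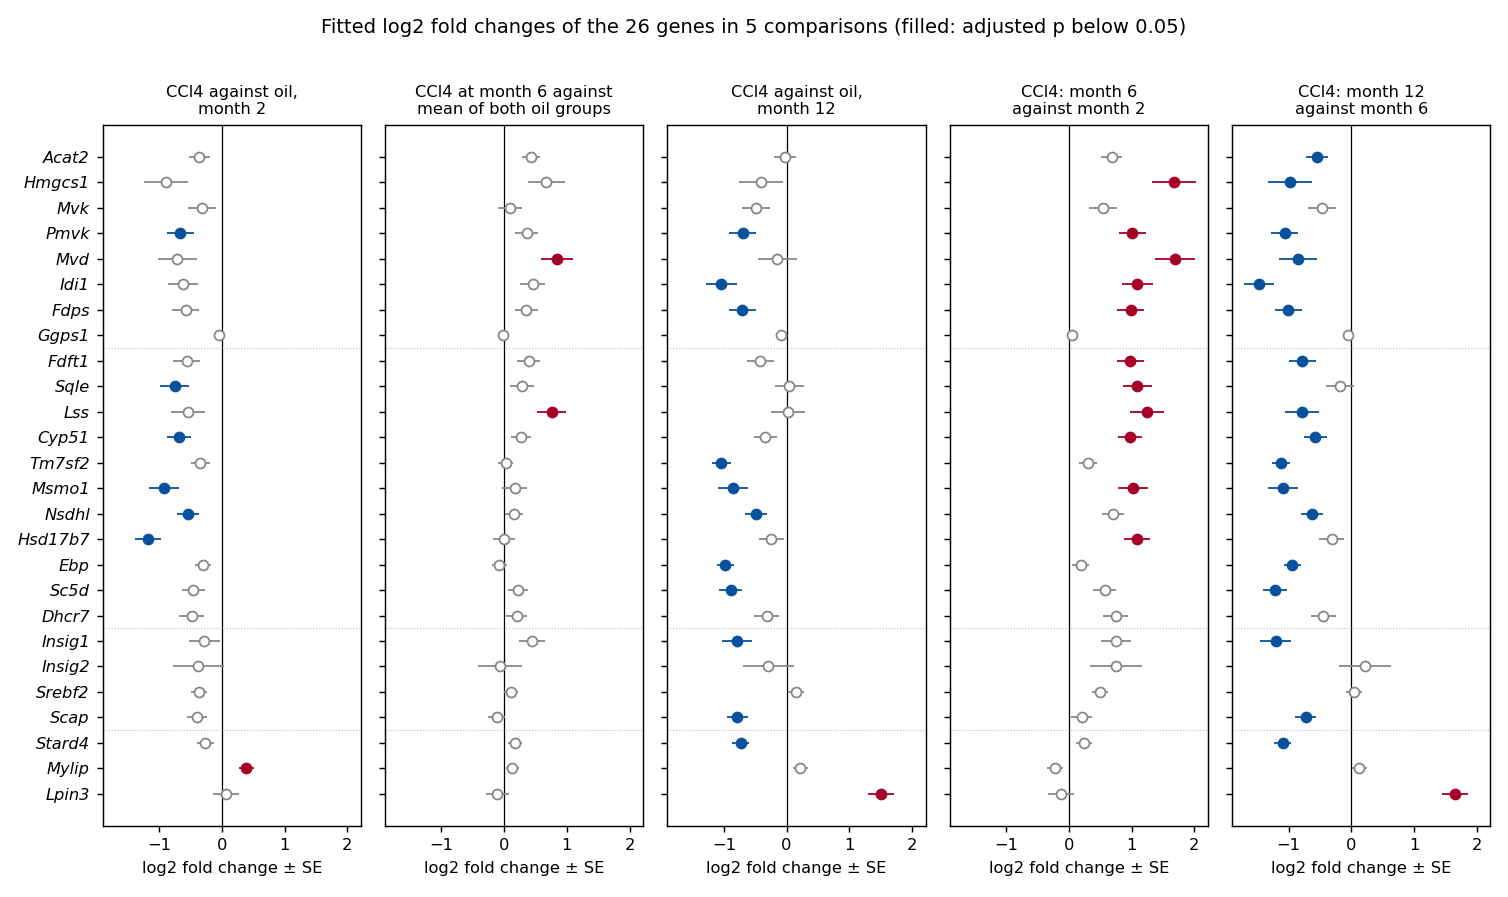
Fitted log2 fold changes with SE (horizontal axes) of the 26 genes (vertical axis, in order of role) in 5 comparisons, filled where the adjusted p is below 0.05. Most filled points lie below 0 at months 2 and 12, those of month 6 against month 2 all lie above 0, and Lpin3 is far above 0 wherever month 12 CCl4 is compared.

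Whether the effect of CCl4 differed between months 12 and 2 was tested as an interaction, which called 3 of the 26 genes higher (11.2% of all tested genes) and 2 lower (10.1%). Lpin3 changed by 1.44 more at month 12 than at month 2 (SE 0.29, adjusted p = 0.000547). Hsd17b7 also differed upward, by 0.93 (SE 0.29, adjusted p = 0.0184), having fallen at month 2 and not been called at month 12. Srebf2 differed by 0.51 (SE 0.18, adjusted p = 0.0439), a call that 11 of the 24 libraries involved could each undo when left out. Tm7sf2 (-0.70, SE 0.21, adjusted p = 0.014) and Ebp (-0.68, SE 0.19, adjusted p = 0.00894) differed downward. Both fell at month 12, and neither was called at month 2. With library totals alone their interactions were -0.35 (adjusted p = 0.182) and -0.32 (adjusted p = 0.176). On that scale 6 of the 26 genes were called higher and 0 lower (33.3% and 2.86% of all tested genes). Msmo1, Pmvk and Nsdhl, which fell at both months, had interactions of 0.07 (SE 0.33), -0.04 (SE 0.30) and 0.05 (SE 0.24), none of them called.

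Within CCl4 livers many of the genes were higher at month 6 than at month 2, while few genes of the transcriptome differed. Of the 26 genes, 11 rose (0.274% of all tested genes rose, 42 genes in all) and 0 fell (0.228%), with a median fold change of 0.75 against 0.00 over all genes. They were Hmgcs1, Pmvk, Mvd, Idi1 and Fdps of the mevalonate steps and Fdft1, the squalene synthase, with Sqle, Lss, Cyp51, Msmo1 and Hsd17b7 of the sterol steps. Mvd had 17.7, 30.3 and 68.2 CPM at month 6, against 5.59, 8.17 and 18.7 CPM at month 2 (1.69, SE 0.31, adjusted p = 0.00934). Hmgcs1 had 487, 685 and 1856 CPM at month 6, against 164, 250 and 490 CPM at month 2 (1.67, SE 0.36, adjusted p = 0.0243). For both, the lowest month 6 mouse lay within the month 2 range. For the other 9 every month 6 mouse was above every month 2 mouse, with fold changes from 0.97 for Cyp51 to 1.24 for Lss. The share of all tested genes without such overlap is not given here.

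The count of 11 changed with single mice and with clock phase. It was 2 without month 6 CCl4 replicate 2, 2 without month 2 CCl4 replicate 6, 3 without month 6 CCl4 replicate 3, and 5 without month 2 CCl4 replicate 4 or 5. Leaving out 4 libraries that stand apart (replicate 2 of both oil groups and replicates 1 and 6 of month 2 CCl4) gave 5, and 1 when month 6 CCl4 replicate 2 was left out as well. With the ratio of clock transcripts as a covariate it was 0 (0.0717% of all tested genes then rose and 0.0196% fell). In that fit the median fold change was 0.62, and 19 of the 26 had an unadjusted p below 0.05. The share of all tested genes at that unadjusted p is not given. DESeq2 called 15 and limma-voom 7.

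From month 6 to month 12 of CCl4 most of the genes fell. The call was lower at month 12 for 17 of the 26 genes (18.6% of all tested genes fell) and higher for 1 (20.6% rose), with a median fold change of -0.75. Idi1 had 102, 159 and 246 CPM at month 12, against 355, 402 and 897 CPM at month 6 (-1.47, SE 0.24, adjusted p = 1.39e-05). Stard4 had 51.5, 60.3 and 85.3 CPM at month 12, against 110, 141 and 165 CPM at month 6 (-1.09, SE 0.13, adjusted p = 9.26e-08). In 10 of the 17 no month 12 mouse reached the month 6 range, a count given without the share over all tested genes. Acat2, the cytosolic acetoacetyl-CoA thiolase, was among them at -0.55 (SE 0.17, adjusted p = 0.0102), although near-identical genes such as Acat3 can share its reads. Lpin3 rose by 1.66 (SE 0.21, adjusted p = 1.45e-07). The count stayed between 14 and 19 when each library was left out in turn, and was 19 with the clock covariate; 4 of 7 hepatocyte markers fell in the same comparison and 3 of 6 cholangiocyte markers rose, with sums of 215 to 1092 CPM at month 12 and 77.2 to 302 CPM at month 6, and their part in it was not tested. These comparisons share their CCl4 libraries with those against oil. Genes that were called in none of the comparisons of CCl4 livers with oil livers, in the interaction or between CCl4 months were Mvk, the mevalonate kinase, Ggps1, the geranylgeranyl diphosphate synthase, Dhcr7, a terminal sterol reductase, and Insig2. Ggps1 had group means between 8.93 and 9.52 CPM in all 6 groups.

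No gene of the 26 was called between the oil groups, whereas several differed between month 2 oil and month 0 livers. At month 12 against month 2 of oil, 0 of the 26 genes were called (0.0391% of all tested genes rose and 0.0326% fell), with 2 at an unadjusted p below 0.05 and 0 calls by DESeq2 or limma-voom; a fit of these groups alone called 1. At month 2 of oil against month 0, 11 genes fell (16.4% of all tested genes fell) and Stard4 rose (14.8% of all tested genes rose). Mvd had 8.09, 17.3 and 23.6 CPM in month 2 oil livers, against 20.8, 52.8 and 79.1 CPM in month 0 livers (-1.51, SE 0.31, adjusted p = 0.000369). Sqle had 59.2, 84.3 and 131 CPM in month 2 oil livers, against 130, 228 and 286 CPM in month 0 livers (-1.22, SE 0.23, adjusted p = 0.000154). The others were Hmgcs1, Mvk, Pmvk, Fdps, Fdft1, Lss, Cyp51, Dhcr7 and Insig1, with fold changes between -1.15 and -0.63. The groups overlapped for each of the 12 genes. With library totals alone 7 fell and 5 rose, against 6.70% and 34.4% of all tested genes. With the clock covariate 3 were called, among 7.54% of all genes higher and 7.75% lower. In the same comparison 5 of 6 neutrophil markers fell (median -2.78), with sums of 5.19 to 12.5 CPM in month 2 oil livers and 40.6 to 106 CPM in month 0 livers, while 5 of 6 erythroid markers (median 1.27) and 3 of 5 mesothelial markers (median 1.44) rose; their part in the result was not tested. Month, age, injection and the hour of sampling cannot be told apart in this comparison.

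Since no label gives the hour at which livers were taken, the ratio of Arntl to Dbp, clock transcripts that peak at opposite times of day, was taken as a measure of clock phase. This log2 ratio had a lowest, median and highest value of -1.71, 1.99 and 3.85 in month 0 livers, -5.7, -5.2 and -0.998 in month 2 CCl4 livers, -5.2, -4.27 and -2.9 in month 2 oil livers, -5.33, -3.23 and 2.96 in month 6 CCl4 livers, -2.74, -0.808 and 1.84 in month 12 CCl4 livers, and -3.92, 1.52 and 2.98 in month 12 oil livers. The CCl4 and oil groups of month 2 lie close together, while month 0 and both month 12 groups lie mostly higher. Adding the ratio to the fit left 8 calls among the 26 genes at month 2, 3 at month 6 and 12 at month 12. The shares of all tested genes called with the ratio in the fit are not given for these comparisons.

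In a fit with a term for each group, the level of 2 of the 26 genes rose with the ratio (3.51% of all tested genes rose with it) and that of 1 fell (3.66%). Insig2 had a slope of 0.23 log2 units per unit of the ratio (SE 0.04, adjusted p = 0.00021), with slopes above 0 within 6 of 6 groups, from 0.04 at month 0 to 0.62 in month 2 CCl4 livers. In month 6 CCl4 livers the 3 mice with ratios of 2.17, 2.96 and -1.38 had 268, 245 and 260 CPM of Insig2. The 3 mice of that group with ratios of -5.33, -5.08 and -5.09 had 83.7, 75 and 75.2 CPM. The call held in each alternative fit and without each library in turn.

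Pmvk had a slope of 0.08 (SE 0.02, adjusted p = 0.0269), above 0 within 5 of 6 groups, and lost its call without any of 5 libraries, with an adjusted p of 0.185 without month 6 CCl4 replicate 2. Stard4 had a slope of -0.05 (SE 0.01, adjusted p = 0.0181), above 0 within 2 of 6 groups, with an adjusted p of 0.0536 without month 2 CCl4 replicate 1, the library without which 1 of the 3 calls was left. Of the 19 enzymes, 16 had slopes above 0, and Pmvk alone was called. Without terms for the groups 14 genes were called, a fit in which clock phase and group are mixed. The share of all tested genes called in that fit is not given. Srebf1, the gene of the lipogenic SREBP, had a slope of -0.10 (SE 0.03, adjusted p = 0.0188).

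**Figure D4:**
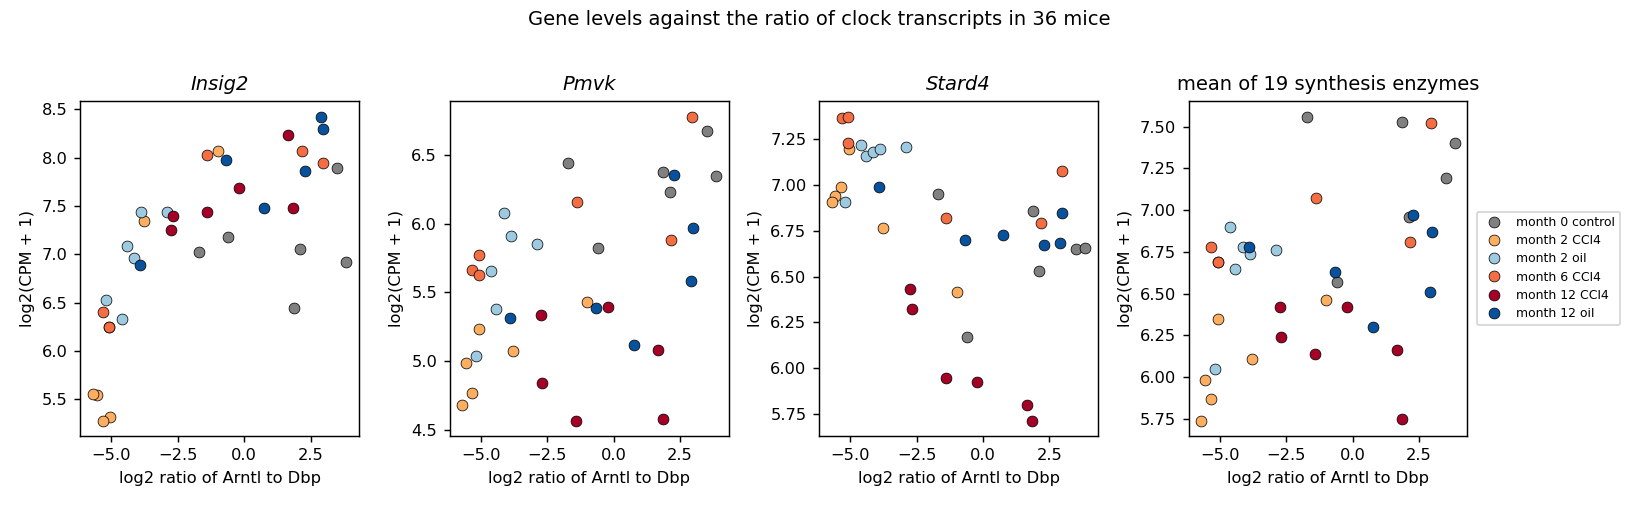
Levels as log2(CPM + 1) (vertical axes) of Insig2, Pmvk, Stard4 and the mean of the 19 enzymes against the log2 ratio of Arntl to Dbp (horizontal axes), 1 point per mouse, coloured by group. The slope of Insig2 is above 0 in each of the 6 groups but near 0 (0.04) in month 0 livers, with a pooled slope of 0.23. At a ratio of -5.33 the enzyme mean is 6.78 in month 6 CCl4 replicate 4 and 5.87 in month 2 CCl4 replicate 4. It is 6.96 in month 0 replicate 2 (ratio 2.11) and 6.97 in month 12 oil replicate 3 (ratio 2.28). The relation of the enzyme mean to group and ratio was not tested.

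Genes next to the pathway were taken from 4 lists, whose counts are to be read against all tested genes, of which 7.0% rose and 3.38% fell at month 2, 7.71% rose and 3.68% fell at month 6, and 25.9% rose and 23.2% fell at month 12. Of 21 tested genes of sterol transport, storage and efflux, 4 rose and 1 fell at month 2, 4 rose and 3 fell at month 6, and 10 rose and 4 fell at month 12. Soat1, which esterifies cholesterol, rose by 0.74 (SE 0.16) at month 2 and by 0.72 (SE 0.14) at month 6, with adjusted p of 0.00261 and 0.00043. Abcg1, a cholesterol exporter, rose by 1.21 at month 12 (SE 0.13, adjusted p = 3.85e-09). Of 14 genes of the SREBP and sterol-sensing machinery 1 rose at each month and 4 fell at month 12, among them Erlin1 (-0.51, SE 0.10, adjusted p = 8.2e-05) and Nfyb, a subunit of NF-Y (-0.51, SE 0.11, adjusted p = 0.000149).

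Of 20 genes of other mevalonate branches, ketogenesis and bile acid synthesis, 3 fell at months 2 and 6, and 7 fell and 2 rose at month 12. Cyp7b1, an oxysterol hydroxylase of bile acid synthesis, fell at each month, and at month 12 averaged 43.8 ± 18.5 CPM in CCl4 livers and 680 ± 201 CPM in oil livers (SD, n = 6 each). Cyp8b1, which sets the share of cholic acid, averaged 35.1 ± 19.3 CPM in month 12 CCl4 livers and 238 ± 39.5 CPM in oil livers (SD, n = 6 each), with a fold change of -2.76 (SE 0.36, adjusted p = 1.13e-07). Of 14 lipogenic SREBP targets 1 fell at month 2, 5 rose at month 6, and 4 rose and 1 fell at month 12; Acss2, the cytosolic acetyl-CoA synthetase, fell by 1.19 at month 12 (SE 0.29, adjusted p = 0.000895) and Elovl6, a fatty acid elongase, rose by 1.08 at month 6 (SE 0.20, adjusted p = 0.000321).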

How the data were processed

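The deposited table holds the authors' raw counts, whole numbers for each symbol in each library. Per the submitters' processing notes the build was mm10, with edgeR 3.30.3 and limma 3.44.3 among the tools. No source used here gives the annotation or says whether counting was by strand. The 26 genes, the 4 neighbouring lists and the tests were chosen with earlier results of these data known. Of the columns of per-sample values 0 were left unused.

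The filter filterByExpr kept 15338 genes. They were scaled by TMM and tested by quasi-likelihood in edgeR 4.0.16 (R 4.3.3), with Benjamini-Hochberg adjustment within each of 8 comparisons and for the clock slope. The clock ratio is log2(CPM + 1) of Arntl minus that of Dbp. Levels per kb use exon lengths of GENCODE vM21, and promoters are from RefSeq.

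Genes given in full were the 12 with the smallest p among those called against oil, in the interaction or with the clock ratio. Alternatives were RLE factors, library totals, other filters, DESeq2 1.42.0, limma-voom (limma 3.58.1), the replicate number as a block, the compared groups alone, the clock covariate and leaving out libraries. The procedure was tested on simulated data. Over the 90 pairs of libraries within groups, chi-square divided by its degrees of freedom was at least 24.65, so no such pair agreed within sampling noise; pairs across groups were not compared. Each sample was taken as the liver of 1 mouse, which the labels do not state for each; p-values measure the spread between these samples, which may in part be technical. Further genes of the pathway are not reported here.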

Additional observations from a re-analysis of the deposited data

Results flagged for a closer look

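In groups of 6, a mouse was singled out where its gap to the nearest mouse, as a share of the group's range, was above Dixon's critical value. Of the 156 combinations of gene and group examined, 18 held such a mouse, and chance gives about 1 in 20 for a single combination. The combinations are not independent, since single mice stood apart for several genes. Whether 18 exceeds chance was therefore not tested. Month 6 CCl4 replicate 2 was the high mouse for 8 genes, at 1856 CPM of Hmgcs1 (the next mouse had 955 CPM), 109 CPM of Pmvk, 897 CPM of Idi1, 205 CPM of Sqle, 252 CPM of Lss, 471 CPM of Cyp51, 608 CPM of Msmo1 and 132 CPM of Hsd17b7. This mouse had the highest clock ratio (2.96) and the highest mesothelial, cholangiocyte (302 CPM) and neutrophil (86.7 CPM) sums of its group, and their part in the result was not tested. Month 2 oil replicate 2 was the low mouse for 5 genes, at 210 CPM of Idi1, 152 CPM of Cyp51, 51.2 CPM of Nsdhl, 249 CPM of Insig1 and 119 CPM of Stard4; it had the highest pancreas sum (12924 CPM) and the lowest clock ratio (-5.2) of its group.

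The other 5 mice that stood apart were month 12 CCl4 replicate 2 for Hsd17b7 (78.2 CPM), month 2 oil replicate 1 for Ebp (225 CPM), month 0 replicate 1 for Dhcr7 (44.9 CPM), month 12 CCl4 replicate 4 for Insig2 (301 CPM) and month 2 CCl4 replicate 6 for Lpin3 (6.91 CPM).

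The effect of CCl4 differed between months by the interaction test of edgeR for 5 of the 26 genes, 3 higher and 2 lower. Of all tested genes 11.2% were called higher and 10.1% lower, and the count is to be read against these shares. Values are the log2 effect at month 12 minus that at month 2. They were -0.677 for Ebp, 0.927 for Hsd17b7, 1.44 for Lpin3, 0.507 for Srebf2 and -0.697 for Tm7sf2.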

How the results depend on the processing

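Of 70 results in which a gene of the 26 was called, 23 kept their call in each alternative fit and 1 changed sign: Nsdhl at month 12 had 0.0809 with library totals alone. The 7 calls at month 2 became 3 with library totals, 4 with no filter on low counts and 12 with the compared groups alone, and ranged from 3 to 12 when each library was left out in turn. The 2 calls at month 6 became 20 with library totals, 0 with limma-voom, against month 12 oil alone or without 5 libraries that stand apart, and 1 against month 2 oil alone or without 4 of these libraries; leaving out each library gave 0 to 3. The 11 calls of month 6 against month 2 CCl4 became 7 with limma-voom, 5 without the 4 libraries, 1 without the 5, 0 with the clock covariate and 3 with the compared groups alone, and ranged from 2 to 14 with each library left out. The compared groups alone gave 1 call between the oil groups, against 0 in the fit of all groups. At month 2 of oil against month 0 the 12 calls became 3 with the clock covariate. The 3 clock slopes became 14 without group terms and ranged from 1 to 4 with each library left out. Leaving out the 5 libraries was chosen after seeing the data. The counts over both directions at month 12, in the interaction and of month 12 against month 6 CCl4 stayed within 1.5 times in the alternatives run, but their split did not: with library totals alone 2 genes fell and 6 rose at month 12, against 11 and 1, and the interaction called 6 higher and 0 lower, against 3 and 2. The cause of these changes was not tested. Shares of all tested genes are given above only for the main fit, for library totals and for some comparisons with the clock covariate.

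The labels do not say whether mice or libraries of 1 replicate number belong together. Of 90 same-numbered pairs across groups 22 correlated above 0.1 (range -0.599 to 0.533), and 5 of 36 libraries correlated best with their own number. The median correlation was -0.030 for same-numbered pairs and 0.0011 for pairs of different numbers. The fit with the replicate block lost 7 of the 70 calls, among them both of month 6 (Lss 0.73, adjusted p = 0.0567; Mvd 0.79, adjusted p = 0.0515); its 1 call there was Acat2 (0.45, adjusted p = 0.0293). The lowest count of any of the 26 genes in a library was 56; how far depth limits the precision was not measured.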
